A study of Mus musculus with 14 samples.

Results

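Processed copies are extra versions of a gene that arise when its spliced messenger RNA is copied back into DNA and inserted elsewhere in the genome, so they lack introns and can stay nearly identical in sequence to the parent. Mouse chromosome 17 carries Hmga1, Rnps1 and Atp6v0c, and each has such a copy on another chromosome, named Hmga1b, Rnps1-ps and Atp6v0c-ps2 in the deposited table. These 3 parents and 3 copies are 6 of the 57180 genes in that table, found there by gene symbol. The copies entered because earlier results on these same libraries called them different between genotypes, and the parents because their transcripts match those copies. Levels against WT are therefore given below as descriptions, with no test.

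The libraries come from liver of mice on normal chow, all littermates and all with Cre in the genotype label, classed for Pkd1, the gene of polycystin 1, as Homo (4 libraries), Het (4 libraries) and WT (6 libraries). The WT mice are thus labelled Cre too. The labels give each library its own number, and no Pkd1 allele, Cre driver, strain, age or sex. Depth was 18573739 to 28431875 counts in Homo libraries, 22833853 to 26245475 in Het and 25238140 to 40925973 in WT. Pkd1 itself, also on chromosome 17, averaged 25.3 ± 1.51 CPM in Homo and 32.2 ± 3.52 CPM in Het, against 34.8 ± 2.77 CPM in WT (SD), a difference that passed edgeR's test in Homo (adjusted p = 0.0246) and not in Het (adjusted p = 0.998). CPM is the usual unit of counts relative to the library total, here after TMM scaling, and is not corrected for transcript length. Hepatocyte markers were abundant in each library, with 8 of 8 measured and a summed level of at least 51400 CPM.

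The parents have different jobs. Hmga1 encodes an architectural chromatin protein that binds AT-rich DNA through AT-hooks and is known for high levels in embryonic and dividing cells and low levels in adult tissue. Rnps1 encodes an RNA-binding protein of the splicing machinery that joins the exon junction complex and, within it, the ASAP and PSAP complexes. Atp6v0c encodes the proteolipid c subunit, which forms the membrane ring of the V-ATPase, the proton pump that acidifies lysosomes and endosomes. Hmga1b is annotated as protein coding, and Rnps1-ps and Atp6v0c-ps2 as processed pseudogenes.

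The copies differ from their parents at very few bases, and the stretches printed here are the places where the aligned coding sequences differ, apart from the missing introns. In the GENCODE transcripts of GRCm38, Atp6v0c-ps2 (ENSMUSG00000080242, chromosome 6) is 1 exon of 465 bases and differs from Atp6v0c (ENSMUSG00000024121, chromosome 17) at 1 base, T111C. Positions count from the first base of the copy transcript, the parent's base stands first, and the capital marks it.
Atp6v0c: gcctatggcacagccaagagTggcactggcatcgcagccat
Atp6v0c-ps2: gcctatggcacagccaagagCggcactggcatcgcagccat

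Rnps1-ps (ENSMUSG00000096403, chromosome 6) is 1 exon of 843 bases and differs from Rnps1 (ENSMUSG00000034681, chromosome 17) at 5 bases, C171A, C260T, T489C, T510C and C684T. Of these, C260T falls on the second base of its codon, and the other 4 fall on the last base of theirs. All 5 are shown in this order, parent above copy.
Rnps1: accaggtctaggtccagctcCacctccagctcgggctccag
Rnps1-ps: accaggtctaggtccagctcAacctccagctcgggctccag
Rnps1: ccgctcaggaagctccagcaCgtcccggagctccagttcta
Rnps1-ps: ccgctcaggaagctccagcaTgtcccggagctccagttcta
Rnps1: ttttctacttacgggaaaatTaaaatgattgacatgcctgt
Rnps1-ps: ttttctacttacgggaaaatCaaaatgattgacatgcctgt
Rnps1: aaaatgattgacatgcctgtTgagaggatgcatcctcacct
Rnps1-ps: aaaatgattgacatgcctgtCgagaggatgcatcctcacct
Rnps1: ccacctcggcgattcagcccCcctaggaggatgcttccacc
Rnps1-ps: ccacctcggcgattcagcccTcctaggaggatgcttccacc

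Hmga1b (ENSMUSG00000078249, chromosome 11) matches Hmga1 (ENSMUSG00000046711, chromosome 17) over 1602 bases with 3 differences, A657G, A784G and G1246T, all in the part that corresponds to the 3′ UTR of Hmga1. The 324 coding bases of Hmga1 have no difference in Hmga1b, so no coding stretch can be shown that separates them. Each copy runs across exon junctions of its parent without an intron, 4 in Hmga1b, 5 in Rnps1-ps and 2 in Atp6v0c-ps2.

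The room for telling parent from copy can be counted. Of all 31-base stretches of the copy, 7.33% in Hmga1b, 17.8% in Rnps1-ps and 7.13% in Atp6v0c-ps2 occur in no transcript of the parent. For stretches of 100 bases these shares are 21.2%, 55.1% and 27.3%. Read length is not given in the sources used here. In the deposited counts, which estimate how reads split among matching transcripts, Hmga1 and Hmga1b had values more than 0.01 from a whole number in 14 of 14 libraries. The same held for Atp6v0c and Atp6v0c-ps2 in 13 libraries and for Rnps1 and Rnps1-ps in 10. Among all 16201 genes that passed the low-count filter, 58.1% had values within 0.01 of a whole number in every library.

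All 3 copies stood higher in Homo and in Het than in WT livers, and the parents stood level or lower. The 6 members all passed the low-count filter, but copies near 0 in WT could pass only through the other genotypes. The Homo libraries lay above all WT libraries for 3 of 3 copies, against 0.735% of all genes tested, and so did the Het libraries, against 0.697%. The copies were selected for these differences, so nothing is read from those counts. By edgeR's quasi-likelihood test at an adjusted p under 0.05, the calls that selected them were 3 of 3 copies in Homo, where 0.16% of all genes tested were called higher, and 2 of 3 in Het, where 0.0556% were. Hmga1b was the copy not called in Het. Because these are bulk livers, a change in the number of cells of a type and a change in RNA per cell cannot be told apart. The summed lymphocyte markers lay higher in each Homo and Het library than in WT, by a narrow margin and without a test. The 7 genes were all detected in each library, and 5 passed the low-count filter. They summed to 32.1 to 39.3 CPM in Homo and 30.1 to 33.5 CPM in Het, which overlap. WT had 16.6 to 29.4 CPM, with a median of 28.5. Their part in the levels of the members was not tested. The summed levels of Kupffer, stellate, sinusoidal, cholangiocyte and erythroid markers overlapped between each genotype and WT.

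**Figure D1:**
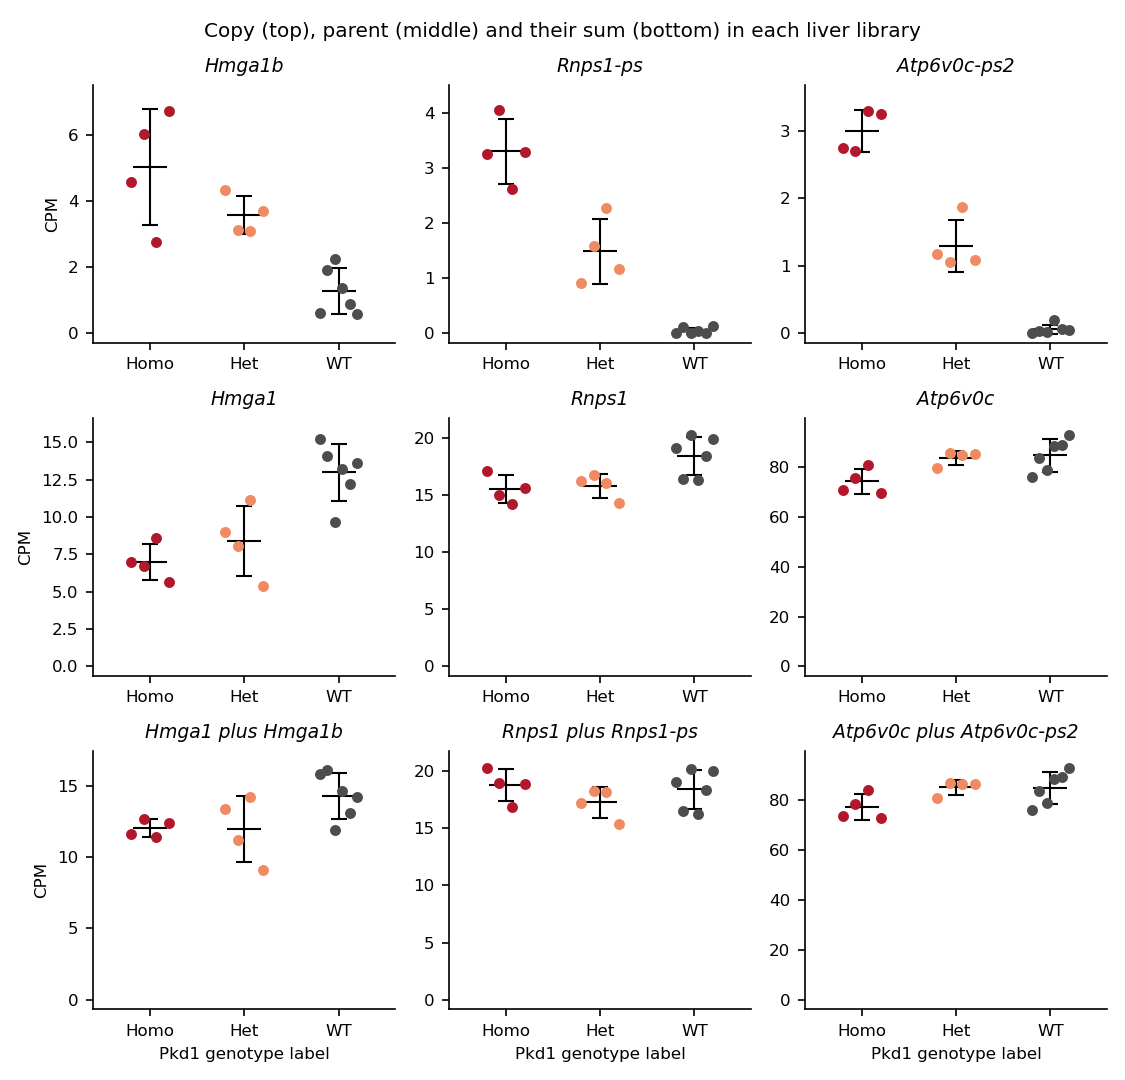
Levels in CPM (vertical axes, linear, each panel with its own scale) of the copy, the parent and the sum of both, for Homo, Het and WT livers. Points are libraries, and bars are the mean ± SD. The copies, selected for that difference, stand apart from WT, while the sums overlap between genotypes.

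Rnps1-ps was close to absent in WT. It reached 3.24, 4.05, 2.61 and 3.29 CPM in Homo 1 to 4, and 0.918, 1.59, 2.27 and 1.16 CPM in Het 1 to 4, while WT libraries had a lowest value of 0, a median of 0.0192 and a highest value of 0.123 CPM. No library of one genotype overlapped with another: each Homo library was above each Het library, and each Het library above each WT library. The 6 WT libraries together held 7 counts, with 3 of them at 0, against 326 counts in Homo and 141 in Het. The fitted log2 fold change was 6.21 (SE 0.529) in Homo over WT and 5.07 (SE 0.548) in Het over WT, values that rest on those 7 counts.

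The parent Rnps1, by contrast, overlapped between genotypes. It had 17.1, 15, 14.2 and 15.6 CPM in Homo and 16.2, 16.7, 16.0 and 14.3 CPM in Het, against a lowest of 16.3, a median of 18.8 and a highest of 20.2 CPM in WT. WT was highest on average, and Homo and Het were nearly level. Its fitted log2 fold change was -0.25 (SE 0.0827) in Homo and -0.22 (SE 0.0827) in Het over WT.

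Parent and copy added together gave similar means in the 3 genotypes. Rnps1 plus Rnps1-ps averaged 18.8 ± 1.43 CPM in Homo (SD, n = 4) and 17.3 ± 1.35 CPM in Het (n = 4), against 18.4 ± 1.7 CPM in WT (n = 6). The mean difference from WT in Homo was -2.92 CPM for the parent and 3.25 CPM for the copy. In Het it was -2.59 CPM for the parent and 1.44 CPM for the copy. The sum had a log2 fold change of 0.03 (SE 0.0826) in Homo and -0.09 (SE 0.083) in Het over WT.

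Atp6v0c-ps2 had the same order of genotypes as Rnps1-ps. It stood at 2.74, 2.70, 3.29 and 3.24 CPM in Homo and 1.17, 1.05, 1.87 and 1.08 CPM in Het, against 0 to 0.192 CPM in WT with a median of 0.0383 CPM. Again no library overlapped between genotypes. The WT group held 10 counts in all, of which WT 4 alone had 5.32 as deposited, against 295 counts in Homo and 123 in Het. The fitted log2 fold change was 5.61 (SE 0.428) in Homo and 4.41 (SE 0.443) in Het over WT. Without WT 4 the value was 6.33 in Homo and 5.12 in Het.

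Atp6v0c drew the most counts of the 6 genes, and its copy a small part of the pair's counts. The parent had 70.8, 75.6, 80.7 and 69.6 CPM in Homo and 79.3, 85.5, 84.6 and 85.0 CPM in Het, against a lowest of 75.7, a median of 85.8 and a highest of 92.8 CPM in WT. The groups overlapped, and the means were 83.6 CPM in Het and 84.6 CPM in WT. The mean difference from WT in Homo was -10.4 CPM for the parent and 2.93 CPM for the copy, which leaves -7.49 CPM for the sum. Atp6v0c plus Atp6v0c-ps2 averaged 77.2 ± 5.17 CPM in Homo and 84.9 ± 2.93 CPM in Het, against 84.6 ± 6.59 CPM in WT (SD, n = 4, 4 and 6). The log2 fold change of the sum was -0.13 (SE 0.068) in Homo over WT.

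Hmga1b differed from the other copies in having estimated counts above 0 in each WT library. Rnps1-ps was at 0 in 3 WT libraries and Atp6v0c-ps2 in 1. Hmga1b had 4.59, 6.05, 2.76 and 6.75 CPM in Homo and 4.34, 3.14, 3.11 and 3.71 CPM in Het. In WT its lowest was 0.572, its median 1.14 and its highest 2.24 CPM. Homo and Het overlapped, because Homo 3 was below all 4 Het libraries. The gap to WT was narrow, with 2.76 CPM in Homo 3 against 2.24 CPM in WT 3. The fitted log2 fold change was 1.96 (SE 0.348) in Homo and 1.47 (SE 0.351) in Het over WT.

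Its parent Hmga1 was the only parent with each Homo library below each WT library, 1 of 3, where 0.42% of all genes tested had that pattern. Nothing is read from that count, since reads are split between Hmga1 and Hmga1b, and Hmga1b was selected for its difference from WT. Levels of Hmga1 in each library follow. Hmga1 had 7.00, 6.70, 8.62 and 5.65 CPM in Homo and 9.02, 8.05, 11.1 and 5.39 CPM in Het. In WT its lowest was 9.64, its median 13.4 and its highest 15.2 CPM. Homo and Het overlapped with each other, and so did Het and WT. The log2 fold change was -0.89 (SE 0.179) in Homo and -0.63 (SE 0.177) in Het over WT.

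The sum of the Hmga1 pair stayed lower on average in both genotypes, with overlapping libraries. It averaged 12.0 ± 0.654 CPM in Homo and 12.0 ± 2.3 CPM in Het, against 14.3 ± 1.6 CPM in WT (SD, n = 4, 4 and 6). The mean difference from WT for Hmga1 was -6.01 CPM in Homo and -4.61 CPM in Het, and for Hmga1b it was 3.76 CPM in Homo and 2.30 CPM in Het. The log2 fold change of the sum was -0.25 in both, with SE 0.118 in Homo and 0.119 in Het over WT.

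**Figure D2:**
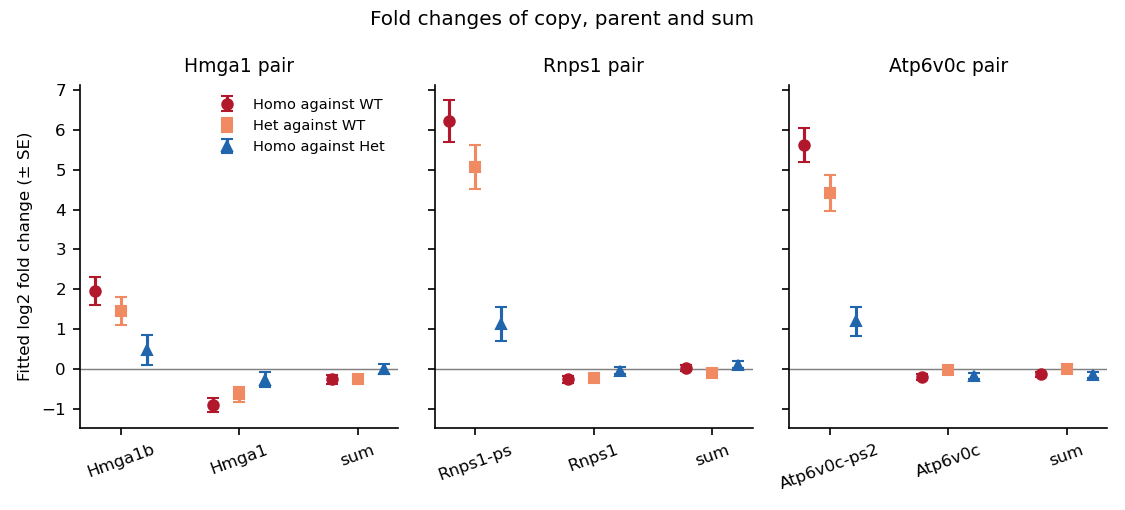
Fitted log2 fold changes with their SE (vertical axis) of copy, parent and sum in the 3 comparisons of genotypes. The copies lie from 0.49 to 6.21, and the sums lie between -0.25 and 0.12.

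The share of the pair's counts that was assigned to the copy needs no scaling between libraries. It is a share of counts and not of levels per length, since each copy transcript is shorter than that of its parent. The Rnps1-ps share was 15.9%, 21.2%, 15.5% and 17.4% in Homo and 5.35%, 8.68%, 12.4% and 7.54% in Het, against at most 0.649% in WT. At the 3 WT libraries with no Rnps1-ps count, a count of 0 allows a share of up to 0.544%, 0.361% and 0.52%. The Atp6v0c-ps2 share was 3.73%, 3.44%, 3.91% and 4.45% in Homo and 1.45%, 1.21%, 2.16% and 1.25% in Het, against at most 0.217% in WT. At WT 1, with no count, up to 0.138% is allowed. Both shares rank the 3 genotypes without overlap.

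The Hmga1b share varied more within genotypes and overlapped between Homo and Het. It was 39.6%, 47.4%, 24.3% and 54.4% in Homo and 32.5%, 28.0%, 21.8% and 40.8% in Het, against a range of 3.95% to 18.9% in WT with a median of 8.14%. In Homo 4 more counts of the pair were assigned to Hmga1b than to Hmga1. WT 3, the library with the largest total count, had the highest WT share.

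**Figure D3:**
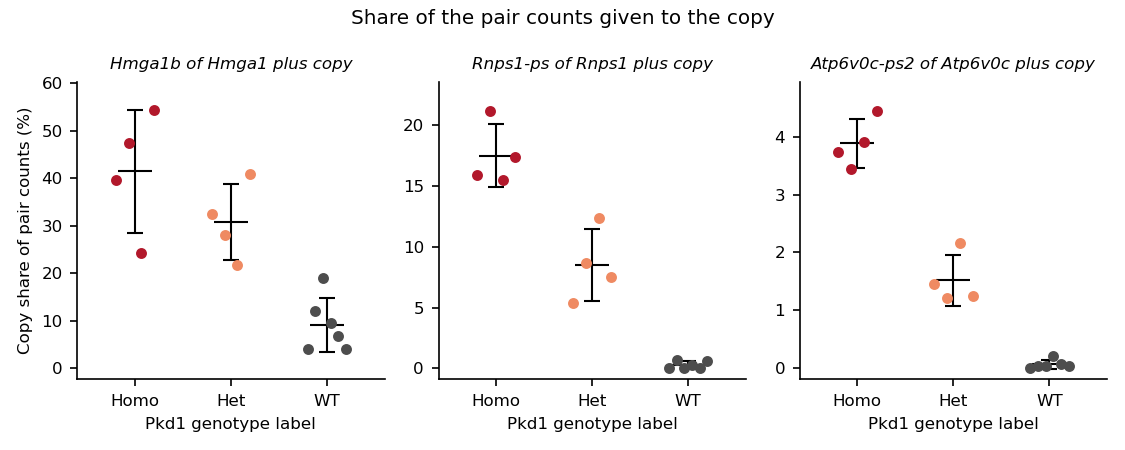
Percentage of parent plus copy counts assigned to the copy (vertical axes, each panel with its own scale) in Homo, Het and WT libraries. Points are libraries, and bars are the mean ± SD; the Rnps1-ps and Atp6v0c-ps2 shares separate all 3 genotypes, and the Hmga1b share separates Homo and Het from WT.

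Homo and Het were compared with each other by test, since the members were not chosen on that contrast, although it shares its libraries with the contrasts that chose the copies. On average Rnps1-ps was 2.22 times and Atp6v0c-ps2 2.32 times as high in Homo as in Het, and for both copies each Homo library exceeded each Het library. That held for 2 of 3 copies, against 1.42% of all genes tested. The copies were chosen for their levels in these same libraries, so nothing is read from that count. The share tests below are not independent of that choice either. The copy share of Rnps1-ps was 17.5% ± 2.62 in Homo and 8.51% ± 2.97 in Het, a difference of 9.02 percentage points (SD, exact two-sided permutation p = 0.0286, n = 4 and 4). The copy share of Atp6v0c-ps2 was 3.88% ± 0.424 in Homo and 1.52% ± 0.443 in Het, a difference of 2.36 points (exact permutation p = 0.0286, n = 4 and 4). This is the smallest p that 4 against 4 libraries can give. The Hmga1b share was 41.4% ± 13.0 in Homo and 30.8% ± 7.95 in Het, a difference of 10.6 points that was within the spread of the libraries (exact permutation p = 0.229, n = 4 and 4). It was 6.31 points without Homo 4 and 16.4 points without Homo 3.

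Across all genes, no member passed in Homo against Het. In edgeR's quasi-likelihood test 0 of 6 members reached an adjusted p under 0.05, where 0.0309% of all genes tested did, and DESeq2 called 0. An unadjusted p under 0.05 was found for 3 of the 6 members and for 5.1% of all genes tested. The copies were chosen for their levels in these libraries, and reads are split between parent and copy, so nothing is read from that count. Atp6v0c-ps2 had a log2 fold change of 1.20 (SE 0.361, adjusted p = 0.916) and Rnps1-ps one of 1.14 (SE 0.42, adjusted p = 0.916). The third was the parent Atp6v0c, at -0.17 (SE 0.0744, adjusted p = 0.958). With DESeq2 the adjusted p of Atp6v0c-ps2 was 0.0843, the lowest of any setting tried for a member. Hmga1b had a fold of 1.40 in Homo over Het (95% interval 0.842 to 2.34, edgeR adjusted p = 0.981).

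The sums in Homo against Het were close to 1 in each pair. The fold was 1.00 for Hmga1 plus Hmga1b (95% interval 0.842 to 1.20), 1.09 for Rnps1 plus Rnps1-ps (interval 0.96 to 1.23) and 0.909 for Atp6v0c plus Atp6v0c-ps2 (interval 0.822 to 1.01). With edgeR 0 of 3 sums passed, 0 had an unadjusted p under 0.05, and DESeq2 also called 0.

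The genes beside the copies played no part in choosing the members, and their calls are read against the 0.222% of all genes tested that edgeR called in Homo against WT, a share at which 0 of 10 is the usual count. Neighbours were drawn from the 15610 tested genes that had a place in the annotation used. Of the 10 nearest to Rnps1-ps, 5 on either side, 0 were called by edgeR in Homo against WT. Their log2 fold changes lay between -0.48 and 0.56 with a median of -0.05. The 10 around Atp6v0c-ps2 also had 0 calls, from -0.40 to 0.53, with a median of -0.08. The 10 around Hmga1b had 0 calls, from -0.23 to 0.47, with a median of 0.02. The median over all genes tested was 0.00. In Het against WT and in Homo against Het the same 3 neighbourhoods also had 0 calls by edgeR. DESeq2 called 0 of these genes in each comparison, and an unadjusted p under 0.05 was found for 0 in Homo against WT and for 1 neighbour of Rnps1-ps in each of the other comparisons. The next genes to Rnps1-ps were Gm43961 (mean 0.838 CPM in Homo and 1.01 CPM in WT) and Mios (9.90 CPM in Homo and 10.5 CPM in WT), an upstream regulator of mTORC1. Beside Atp6v0c-ps2 lay Ybx1-ps2 (0.37 CPM in Homo and 0.355 CPM in WT) and Trim24 (26.0 CPM in Homo and 34.2 CPM in WT), a transcriptional coregulator. Beside Hmga1b lay Dcxr (27.6 CPM in Homo and 31.4 CPM in WT), an enzyme of xylulose metabolism, and Rfng (14.0 CPM in Homo and 13.6 CPM in WT), a glycosyltransferase that acts on Notch.

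The parents Rnps1 and Atp6v0c lie near Pkd1, with 7 and 14 tested genes between, and they share neighbours. Between them lie Abca3, a lipid transporter, and Tedc2, a centriole component. Both passed in Homo against WT by edgeR, Abca3 at 210 CPM in Homo and 56.9 CPM in WT (adjusted p = 2.04e-11) and Tedc2 at 22.8 CPM in Homo and 93.5 CPM in WT (adjusted p = 1.02e-06). The same 2 genes count among the 10 nearest of each parent, where 0.222% of all genes tested were called. An unadjusted p under 0.05 was found for 6 of the 10 around Rnps1 and 5 of the 10 around Atp6v0c. These windows overlap, so the counts are not separate. DESeq2 called 4 of the 10 around each of these parents, and 0.274% of the 22992 genes to which it gave an adjusted p. Het livers had 139 CPM of Abca3, against 56.9 CPM in WT (edgeR adjusted p = 4.75e-09), and 55.5 CPM of Tedc2, against 93.5 CPM in WT (adjusted p = 0.0645). Both also passed in Homo against Het (edgeR adjusted p = 0.00107 for Abca3 and 0.0019 for Tedc2). The closest to Rnps1 were D330041H03Rik (1.99 CPM in Homo and 1.37 CPM in WT) and Eci1 (46.9 CPM in Homo and 57.0 CPM in WT), which shifts double bonds in fatty acid oxidation. The closest to Atp6v0c were Amdhd2 (10.8 CPM in Homo and 12.1 CPM in WT) and Tbc1d24 (19.7 CPM in Homo and 20.7 CPM in WT).

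Hmga1 lies farther away on chromosome 17, with 85 tested genes between it and Pkd1. None of its 10 neighbours was called by edgeR in Homo against WT, a count of 0 with log2 fold changes from -0.23 to 0.31, while 1 had an unadjusted p under 0.05 and DESeq2 called 0. On either side were Gm49774 (0.565 CPM in Homo and 0.492 CPM in WT) and Smim29 (0.772 CPM in Homo and 0.735 CPM in WT).

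**Figure D4:**
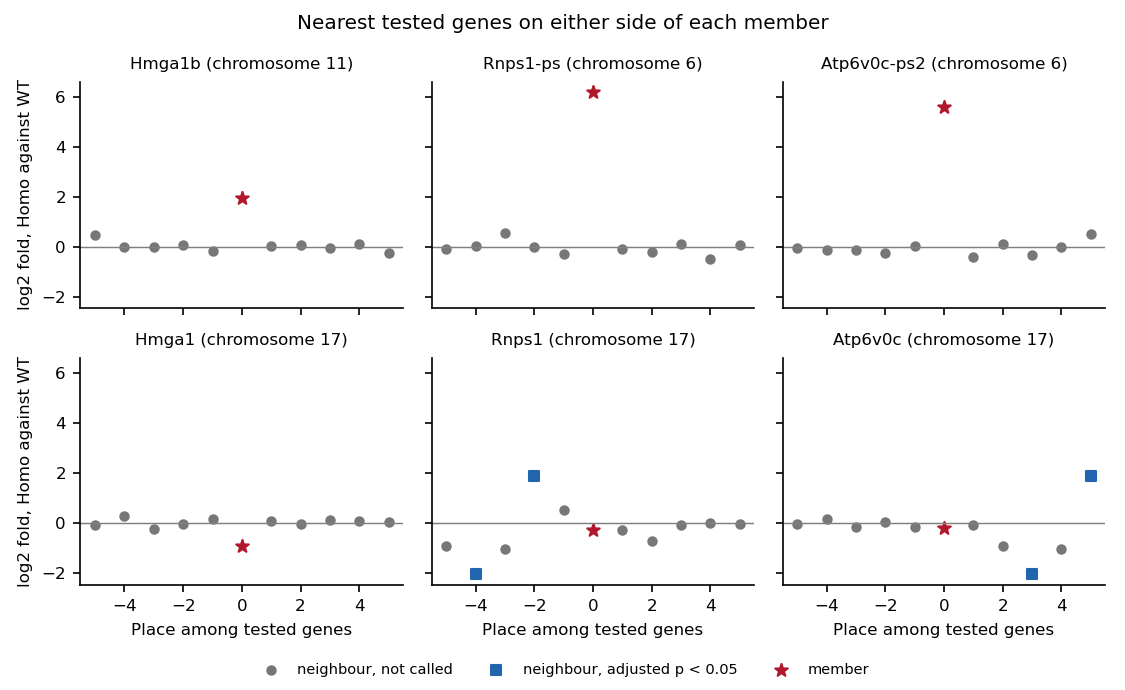
Log2 fold change in Homo against WT (vertical axis) of each member, drawn as a star at place 0, and of the 5 nearest tested genes on either side, ordered along the chromosome (horizontal axis). The copies were selected for this difference, so their distance from the neighbours is not a result. Neighbours of the copies lie between -0.48 and 0.56, and the squares near Rnps1 and Atp6v0c are Abca3 and Tedc2.

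In 3 lists of genes from the same pathways none of the genes tested was called in Homo against WT, which is also the usual count for lists of this size where 0.222% of all genes are called. Of 8 other HMG chromatin proteins tested, 0 were called by edgeR in Homo against WT, 0 had an unadjusted p under 0.05 and DESeq2 called 0, with a median log2 fold change of -0.02. The 3 with the smallest p were Hmgn5 at 49.1 ± 3.58 CPM in Homo and 54.3 ± 5.26 CPM in WT, Hmgb1 at 142 ± 11.7 CPM in Homo and 150 ± 14.2 CPM in WT, and Hmgn1 at 38.1 ± 3.48 CPM in Homo and 39.3 ± 3.05 CPM in WT (SD). Of 14 genes of the exon junction, ASAP and PSAP complexes, 0 were called by edgeR, 0 had an unadjusted p under 0.05 and DESeq2 called 0, with a median of -0.01. Rbm8a, a core subunit of the exon junction complex, was at 25.5 ± 3.21 CPM in Homo and 28.5 ± 2.33 CPM in WT. The export adaptor Alyref was at 12.5 ± 0.745 CPM in Homo and 13.6 ± 0.982 CPM in WT, and Pnn, the pinin subunit of PSAP, at 54.7 ± 0.702 CPM in Homo and 59.1 ± 4.31 CPM in WT.

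For the V-ATPase, of 22 other subunit genes 19 were tested, 13 with a log2 fold change above 0 and 6 below in Homo against WT, and the median was 0.04. By edgeR 0 were called, 0 had an unadjusted p under 0.05, and DESeq2 called 0. Atp6v0b, which contributes the c'' subunit to the same ring as Atp6v0c, was at 46.2 ± 6.1 CPM in Homo and 40.7 ± 5.36 CPM in WT. Atp6v0d1, which couples the ring to the stalk, was at 36.3 ± 3.24 CPM in Homo and 39.3 ± 3.42 CPM in WT, and Atp6v0e2 at 0.523 ± 0.139 CPM in Homo and 0.339 ± 0.128 CPM in WT. For Het against WT, 0 genes were called in any of the 3 lists by edgeR or DESeq2, and 2 genes of the exon junction list had an unadjusted p under 0.05.

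The genes whose pattern over the 14 libraries was most like each copy were ranked by Pearson r of log2 CPM. This is a description, since the libraries form clusters by genotype and are not spread evenly. Abca3 was first for Atp6v0c-ps2 (r = 0.977) and for Rnps1-ps (r = 0.969), and second for Hmga1b (r = 0.863). Next for Atp6v0c-ps2 were the unnamed ENSMUSG00000121779 (r = 0.974) and Glo1-ps (r = 0.973), a copy of the chromosome 17 gene Glo1. Next for Rnps1-ps were Atp6v0c-ps2 (r = 0.968) and ENSMUSG00000121779 (r = 0.963). For Hmga1b, Gm50252 of chromosome 17 came before Abca3 (r = 0.883) and ENSMUSG00000121779 after it (r = 0.855). None of these genes was among the 3 closest to a parent. The closest to Hmga1 were Aurkaip1 (r = 0.859), Dbnl (r = 0.817) and Gm13423 (r = 0.815). The closest to Rnps1 were Gdi2 (r = 0.806), Otud6b (r = 0.8) and Gm56813 (r = 0.796), and the closest to Atp6v0c were Taf13 (r = 0.88), Hspa4 (r = 0.845) and Slc27a2 (r = 0.84).

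The pairs can be set beside other copies named after a parent in the table. Besides Rnps1-ps and Atp6v0c-ps2, 57 such copies have a parent on chromosome 17, of which 7 were tested. Of those, 1 was called higher in Homo and in Het against WT by edgeR, Glo1-ps. Of all genes tested, 0.16% were called higher in Homo and 0.0556% in Het. This is a single gene, named after its values were seen, so nothing is read from the count. The 7 had a median log2 fold change of 0.01 in Homo over WT. Among copies with a parent on another chromosome 80 were tested, and 0 were called by edgeR or DESeq2 in Homo or Het against WT. That is also the usual count where edgeR called 0.222% of all genes tested in Homo. The 80 had a median of -0.02 in Homo over WT. An unadjusted p under 0.05 was found for 4 of the 80 in Homo and 3 in Het against WT, near what that threshold gives by itself. Another sequence match of Atp6v0c, Atp6v0c-ps1 on chromosome 7, did not pass the low-count filter.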

How the data were processed

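RNA from liver was measured in 14 libraries, 4 Homo, 4 Het and 6 WT. The labels name Trizol and RNeasy for extraction and NuGen Ovation for library preparation. The deposited table holds estimated counts per gene that the authors made with STAR and Salmon on GRCm39, per the submitters' processing notes. Not given in the sources used here are tool versions, annotation release, read length and strand setting. Estimated counts were rounded before testing. Closest libraries differed by a chi-square of 24.9 per degree of freedom, so each counted as 1 replicate, and p-values measure only the spread between these mice.

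Genes were filtered with filterByExpr (count minimum 10, total minimum 15), which kept 16201 of 57180. Counts were scaled with TMM and fitted in 1 quasi-likelihood model over all libraries (edgeR 4.0.16, R 4.3.3), with Benjamini-Hochberg adjustment over all genes tested. Sums were tested by adding parent and copy before the same fit. Copy shares were compared with exact two-sided permutation tests (3 shares, p-values unadjusted, in departure from the plan, because the pairs were chosen with results known). Floors of 3 counts per library cover counting error only. The fit was tested on simulated data. DESeq2 1.42.0 was an alternative.

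Sequences and gene order were taken from GENCODE M21, built on GRCm38 and not on the build of the counts, so no coordinates are printed. It placed 15610 of the 16201 genes tested on a chromosome. The rest could not be counted as neighbours or between a member and Pkd1. Transcripts were matched with BLAST 2.17.0. The copies and parents have near-identical transcripts, which limits how reads can be divided.

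The members and lists were chosen with earlier results of these data known. Genes named besides the members are Pkd1, the 3 genes per pathway list ranked first by p for Homo over WT, the nearest tested gene on each side of a member, any called gene within 5 places, and the 3 most correlated genes per member. Atp6v0c-ps1 and Glo1-ps were named after their values were seen.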

Additional observations from a re-analysis of the deposited data

Results flagged for a closer look

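In 36 combinations of genotype and measure, 5 had a library far from the rest of its group. The criterion, Dixon's gap over range at its 95% critical value, flags about 1 in 20 groups by chance, and the combinations are not independent, since sums and shares contain the same counts. Atp6v0c was at 79.3 CPM in Het 1, where the next lowest Het library had 84.6 CPM, and the sum with its copy was at 80.5 CPM there, where the next had 86.1 CPM. Atp6v0c-ps2 was at 1.87 CPM in Het 3, where the next highest Het library had 1.17 CPM. In WT 4 Atp6v0c-ps2 was at 0.192 CPM, with 0.0638 CPM in the next highest WT library, and its share of the pair counts there was 0.217%, with 0.0718% in the next.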

How the results depend on the processing

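Over 108 alternative values of the copies in Homo or Het against WT, 108 stayed above 0. The copies were selected for being higher in these same libraries, so that outcome was largely set beforehand and nothing is read from it. In Homo against Het, 0 of 165 alternative values of members and sums reached an adjusted p under 0.05. The number of genes called depended on the setting, and the cause was not tested. Leaving out chromosome 17 genes also takes their own calls out of the count. In Homo against WT it was 36, and 63 with DESeq2, 5 with chromosome 17 genes left out and 23 to 40 when 1 library was left out, lowest without Homo 1. In Het against WT it was 9, and 34 with DESeq2, 23 with no low-count filter and 4 with chromosome 17 genes left out. In Homo against Het it was 5, and 20 with DESeq2 and 1 with chromosome 17 genes left out. Genes without a chromosome in the annotation used stayed in the fits without chromosome 17, so some of them may lie there. The labels state no pairing of the libraries by number. Of 12 same-numbered pairs, 2 had a correlation of deviations over 0.1, which cannot settle whether the numbers pair them. With the replicate number as a block, 19 genes were called in Homo against WT, 9 in Het against WT and 2 in Homo against Het. The block changed no call of a member in Homo against Het. WT 5 and WT 6 share their numbers with no other library, so they added nothing to the blocked comparisons.

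The folds of the copies near 0 in WT moved most when a WT library was left out. With 1 library left out, the log2 fold change of Rnps1-ps lay between 5.88 and 6.74 in Homo and between 4.74 and 5.60 in Het over WT, highest without WT 6. That of Atp6v0c-ps2 lay between 5.37 and 6.33 in Homo and between 4.17 and 5.12 in Het, highest without WT 4. The Homo minus Het difference in copy share ran from 7.78 to 10.3 points for Rnps1-ps and from 2.18 to 2.58 points for Atp6v0c-ps2, each with an exact permutation p of 0.0571, the smallest that 3 against 4 allow. For Hmga1b it was 6.31 points without Homo 4 and 16.4 points without Homo 3, the lowest and highest. Low counts in WT limit the precision of the Rnps1-ps and Atp6v0c-ps2 folds, and their SE depended on the method. In Homo over WT, DESeq2 gave an SE of 0.616 for Rnps1-ps, where the edgeR value was 0.529. For Atp6v0c-ps2 it gave 0.519, where the edgeR value was 0.428. In Homo over Het the DESeq2 SE were the smaller ones, 0.34 for Rnps1-ps and 0.301 for Atp6v0c-ps2.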
